A study of Mus musculus with 4 samples.

Results

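The genes described here encode the ESCRT (endosomal sorting complexes required for transport) and abscission machinery. They were chosen by name, as a list of 32 symbols whose rule uses no measured value, and were divided by complex into ESCRT-0, ESCRT-I, ESCRT-II, ESCRT-III, VPS4 with its cofactor, and the midbody recruiters and regulators. Of the 32 genes, 31 were matched to a row of the count tables, which hold 46078 gene rows, and Vps28, a core subunit of ESCRT-I, was not matched and was not analysed here. Wild-type mouse embryonic stem (ES) cells of the E14 line, which had been growing in 2i, were sorted by forward and side scatter into small cells or taken without a gate, and single cells were sequenced by Smart-seq2 6 h later. The small gate was meant to hold cells leaving mitosis or in G1. The 4 groups are called 2i small, 2i ungated, N2B27 small and, for ungated cells in N2B27, N2B27 ungated. Values for all 4 are given in that order unless stated. All cells were plated on laminin after the sort. 2i is a medium that keeps ES cells naive through inhibitors of MEK and GSK3, to which, per the study's methods, leukemia inhibitory factor was added, and N2B27 is the same kind of medium without these additions, in which ES cells leave the naive state. The study asked how cell division is linked to the exit from naive pluripotency, and abscission is the last step of that division.

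ESCRT complexes bend and cut membranes from within a neck. On endosomes they act in sequence, with ESCRT-0 gathering ubiquitinated cargo, ESCRT-I and ESCRT-II shaping the bud, ESCRT-III filaments narrowing its neck and the ATPase VPS4 taking the filaments apart. At the end of cytokinesis the protein Cep55 sits in the midbody, the bridge between daughter cells, and brings in Tsg101 and Pdcd6ip (ALIX), which in turn bring ESCRT-III to cut the bridge. The same filaments seal the nuclear envelope after mitosis, and several members delay abscission when chromatin is left in the bridge.

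Each group was 1 sample of 24 cells, so no test between groups was possible and all differences below are descriptions. The 95% intervals of read counts and of shares cover counting error only, and those of medians come from order statistics across genes. After a filter on total counts, genes detected and mitochondrial counts, 12 cells of 2i small, 22 of 2i ungated, 20 of N2B27 small and 21 of N2B27 ungated were kept, 75 of 96. The kept cells had 1364155 to 4844170 counts on genes. The median number of genes with a count was 7603, 9515.5, 7462.5 and 8200. The ERCC spike-ins, control RNAs added to the cells, took a median of 3.47%, 1.28%, 2.45% and 1.14% of counts. All 7 ES cell markers on the list checked (Pou5f1, Sox2, Nanog, Zfp42, Esrrb, Dppa5a and Utf1) had a mean of at least 20 in every group, whereas the summed level of the 7 fibroblast markers stayed at or below 0.822 in every cell. Genes of other lineages were not absent in every cell. The summed level reached 533 for the 6 endoderm markers, 1035 for the 5 trophectoderm markers and 805 for the 5 mesoderm and neural markers, beside 10297 to 220057 for the ES cell markers. A mean of at least 20 was seen for no endoderm marker, for 1 trophectoderm marker in 2i small and 2 in N2B27 small, and for 2, 2, 1 and 2 mesoderm and neural markers. Their part in the results was not tested. A 2i small cell stood apart with 40.9% of its counts on spike-ins, and through its size factor of 0.133 a single read in it counted as 7.53 normalized counts. Another 2i small cell had 15712 genes with a count, against 10335 in the next cell. Cells in 2i and cells in N2B27 lay on different plates and lanes, so effects of medium and plate cannot be told apart. Small and ungated cells shared a plate, but on different index rows, and no index pair was shared between groups of a plate.

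Levels below are means of read counts divided by DESeq2 size factors, over the kept cells of a group. They are called normalized read counts. Where genes are compared with each other the value was divided by the summed exon length in kilobases. Of the 31 matched members, 26 had a mean of at least 20 over the 4 groups, as did 8730 of all genes. The members under 20 were Vps37b (5.10), Mvb12b (1.30), Vps25 (0.476), Chmp4b (8.54) and Spast (15.9).

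Per kilobase, ESCRT-III genes stood highest. Chmp2a reached 445 normalized counts per kilobase over the 4 group means, Chmp5 224 and Chmp3 123, followed by Vta1, the cofactor that stimulates VPS4, at 109.3 and Chmp1a at 92.4. Chmp2a was highest in all 4 groups, at 485, 343, 539 and 412 per kilobase, and Chmp5 came next in all 4, at 161, 197, 281 and 255. After them came Chmp3 in 2i small, N2B27 small and N2B27 ungated, at 112, 128 and 144 per kilobase, but Vta1 in 2i ungated, at 126. The spread over cells was far wider than the distance between these neighbours. Chmp3, for example, ran in 2i small from 0 over a median of 199.9 to 1784 normalized counts in single cells, and Chmp5 in N2B27 small from 0.854 over a median of 220.0 to 3484.

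**Figure D1:**
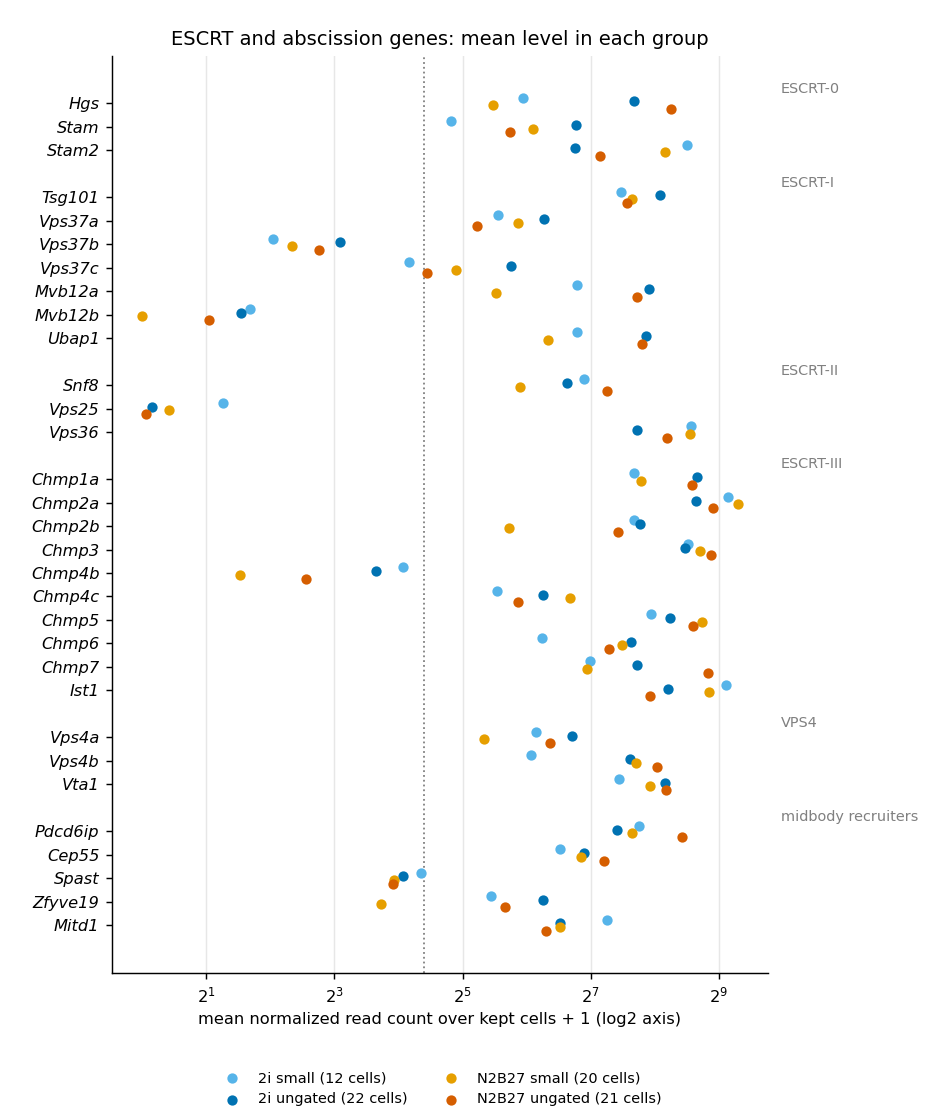
Mean normalized read count plus 1 (log2 axis) of the 31 matched members in each group, ordered by complex. Each point is 1 group of 12, 22, 20 or 21 cells, without replicates, and the dotted line marks a mean of 20. Chmp2a lies near the right edge in every group, while Vps25, Mvb12b, Vps37b, Chmp4b and Spast lie to the left of the line in all 4.

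At the low end, Vps25 had 9, 3, 8 and 1 counts. Vps25 and Vps36 with Snf8 form ESCRT-II, and the other subunits were not low, with overall means of 313 for Vps36 and 106 for Snf8. In the GENCODE M21 annotation 67.2% of the exon bases of Vps25 overlap the gene Ramp2, and reads that overlap more than 1 gene were left out when the authors counted, so its level is uncertain. The same holds for Vps37b, with 42.5% of its exon bases under Hip1r and Gm37939. For Chmp4b, one of the filament-forming subunits of ESCRT-III, no exon overlap and no copy of at least 90% identity was found in this annotation, and it still had only 285, 347, 44 and 115 counts. It was seen in 5 of 12, 12 of 22, 5 of 20 and 6 of 21 cells, and in N2B27 ungated a single cell held 86.96% of its counts. Mvb12b had no count in the 20 N2B27 small cells, where a floor of 3 counts was set. It had 25 in N2B27 ungated, from 2 cells, 28 in 2i small and 32 in 2i ungated. With that floor its level was 8.33-fold lower in N2B27 small than in N2B27 ungated, a ratio of reads and not a bound over cells. By cells, 0% (interval 0% to 16.8%) and 9.52% (1.17% to 30.4%) had a count, and these intervals overlap. Processed pseudogenes of at least 90% identity over 25.3% to 70.5% of the transcript exist for Chmp1a, Chmp2a, Chmp3, Snf8, Tsg101, Vps4a and Vps4b, so some of their reads may have been split. That of Tsg101 took 9745 counts over all cells.

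Small cells in N2B27 were compared with ungated cells in N2B27 to see whether cells that met the medium early in the cycle differed. More members were lower than higher in the small cells. Among the 26 members with a mean of at least 20, 8 were lower by a log2 ratio of at least 1 (a 2-fold difference) and 1 was higher. That is 30.8% and 3.85% of these members, where 17.1% of all 8730 genes were lower and 11.8% higher by the same limit. The median log2 ratio of the 31 members was -0.26, with an interval from order statistics across genes of -1.02 to 0.21, beside -0.12 for all 8730 genes. These 8730 genes have a mean of at least 20, and for the 26 members with such a mean the median was -0.21 (interval -1.02 to 0.36). The median of all genes lies within both intervals. Each of the 6 parts of the list held at least 1 of the lower members.

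Hgs (chr11:120467635-120483979, plus strand, GRCm38), the ESCRT-0 subunit that binds ubiquitin and endosomal lipid, gave the lowest ratio. Its mean was 43.7 normalized counts in N2B27 small and 304 in N2B27 ungated, and 60.4 in 2i small and 204 in 2i ungated. Single cells of N2B27 small ran from 0 over a median of 0.738 to 251, and those of N2B27 ungated from 0 over a median of 284 to 1054. The 2 ranges overlapped, but only 4 of 20 small cells held at least 10 reads, against 16 of 21 ungated cells. The summed counts were 991 (exact Poisson interval 930 to 1055) and 7064 (6900 to 7231). The log2 ratio was -2.77, and it lay between -4.77 and -2.49 in 13 alternative settings, 2 of which leave out a 2i small cell and cannot move a ratio between the other groups. Among cells called S phase by cyclone, 11 small and 4 ungated, it was -2.74.

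Mvb12a (chr8:71542922-71548085, plus strand), which with Ubap1 and Mvb12b supplies the fourth subunit of ESCRT-I, was next. Its mean was 45.0 in N2B27 small, 209.8 in N2B27 ungated, 109.6 in 2i small and 239.6 in 2i ungated. In N2B27 small the cells ran from 0 over a median of 0 to 320.2, and in N2B27 ungated from 0 over a median of 164 to 831. The log2 ratio of -2.19 lay between -3.83 and -1.95 in the 13 settings. Ubap1, which takes the same place in ESCRT-I, stood at 80.0 and 222 in N2B27 small and N2B27 ungated, a log2 ratio of -1.46. That ratio rested on few cells, since the highest ungated cell held 32.9% of the counts and the median ungated cell stood at 4.34. Among cells in S phase the direction of Ubap1 turned, to 4.03.

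Of ESCRT-III, Chmp7 and Chmp2b were lower. Chmp7 (chr14:69717000-69732541, minus strand), which recruits ESCRT-III to the re-forming nuclear envelope, had means of 122 in N2B27 small and 456 in N2B27 ungated, and 126 and 209.5 in 2i small and 2i ungated. Its N2B27 small cells ran from 0 over a median of 1.34 to 771, and 6 of 20 held at least 10 reads. Its N2B27 ungated cells ran from 0 over a median of 300.0 to 2098, and 18 of 21 held at least 10 reads. The log2 ratio was -1.89 and, in the other settings, -4.33 to -1.67. Chmp2b (chr16:65539128-65562726, minus strand), a late-acting filament subunit, had means of 51.9 and 169.9 in N2B27 small and N2B27 ungated, and of 203 and 217 in 2i small and 2i ungated. Its median cell was at 0.410 in N2B27 small and at 156 in N2B27 ungated. The log2 ratio was -1.69, with -3.14 to -1.30 in the other settings.

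Zfyve19 (chr2:119208617-119217049, plus strand), known as ANCHR, holds VPS4 back at the midbody while the abscission checkpoint is active. Its means were 12.3 in N2B27 small, 49.7 in N2B27 ungated, 42.3 in 2i small and 75.05 in 2i ungated. Its median cell was at 0 in 3 groups and at 65.2 in 2i ungated. In N2B27 small 1 cell held 76.8% of its counts, so that group's mean rests largely on a single cell. The log2 ratio was -1.93 and ranged from -2.99 to -1.03 in the other settings. With log2 values averaged over cells it was -1.03 where the median of all genes was -0.76.

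Snf8, of ESCRT-II, had means of 58.8 and 152 in N2B27 small and N2B27 ungated (log2 ratio -1.35), and Vps4a, a VPS4 ATPase, 39.4 and 81.1 (log2 ratio -1.02). Vps4a passed the limit in 6 of the 13 other settings and kept its direction in all 13. Stam2, the partner of Hgs in ESCRT-0, was the member higher in small cells. Its means were 286 in N2B27 small and 140.2 in N2B27 ungated, a log2 ratio of 1.02, and the direction turned with spike-in size factors (-0.054) and among cells in S phase (-1.10). Just inside the limit were thus Vps4a and Stam2, and just outside it Ist1 at 0.92, a regulator that binds ESCRT-III and VPS4, and Chmp4c at 0.82. Ist1 stood at 459 normalized counts in N2B27 small and 242 in N2B27 ungated.

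**Figure D2:**
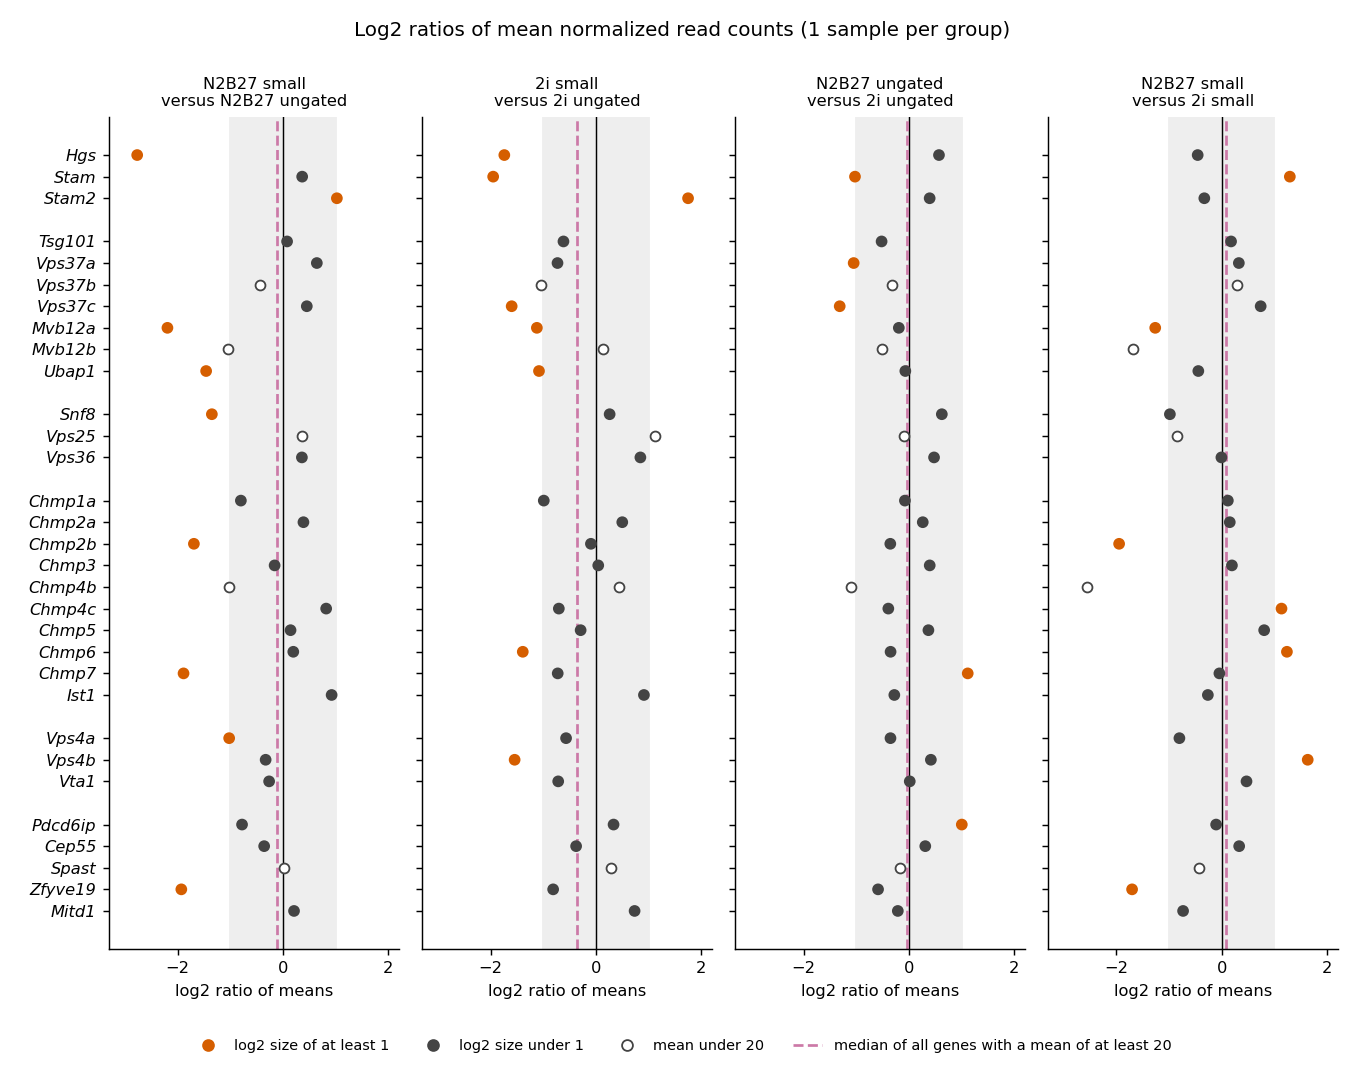
Log2 ratios of mean normalized read counts for the 31 members in the 4 comparisons, with the range between -1 and 1 shaded and the median of all 8730 genes dashed. Filled points are members with a mean of at least 20, coloured where the size is at least 1, and open points are the 5 members under 20. In N2B27 small against ungated cells Hgs lies farthest left, at -2.77, and 8 coloured points lie left of the shaded range against 1 to its right.

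Some other measures moved with this comparison. N2B27 small cells had fewer genes with a count and a higher spike-in share than N2B27 ungated cells, as given above. By the cyclone method 6, 11 and 3 of them were in G1, S and G2/M, against 2, 4 and 15 of the ungated cells. When every cell was thinned to 1300000 counts, 2 members were higher and 7 lower, with 14.1% and 16.3% of all genes, and the members' median was -0.17 beside -0.043 for all genes. With size factors from the spike-ins, which keep differences in total RNA where each cell received the same amount, 13 members were lower and 0 higher. Of all genes 41.1% were lower and 6.57% higher, the members' median was -0.95 and that of all genes -0.83. Hgs, Mvb12a, Chmp2b, Chmp7 and Zfyve19 were past the limit in each of the 13 settings, of which the 2 without a 2i small cell could not move these ratios. The share of all genes past it in every setting is not given here. With log2 values averaged over cells 42.4% of all genes were lower by the limit. The part of RNA content and phase in these ratios was not tested.

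**Figure D3:**
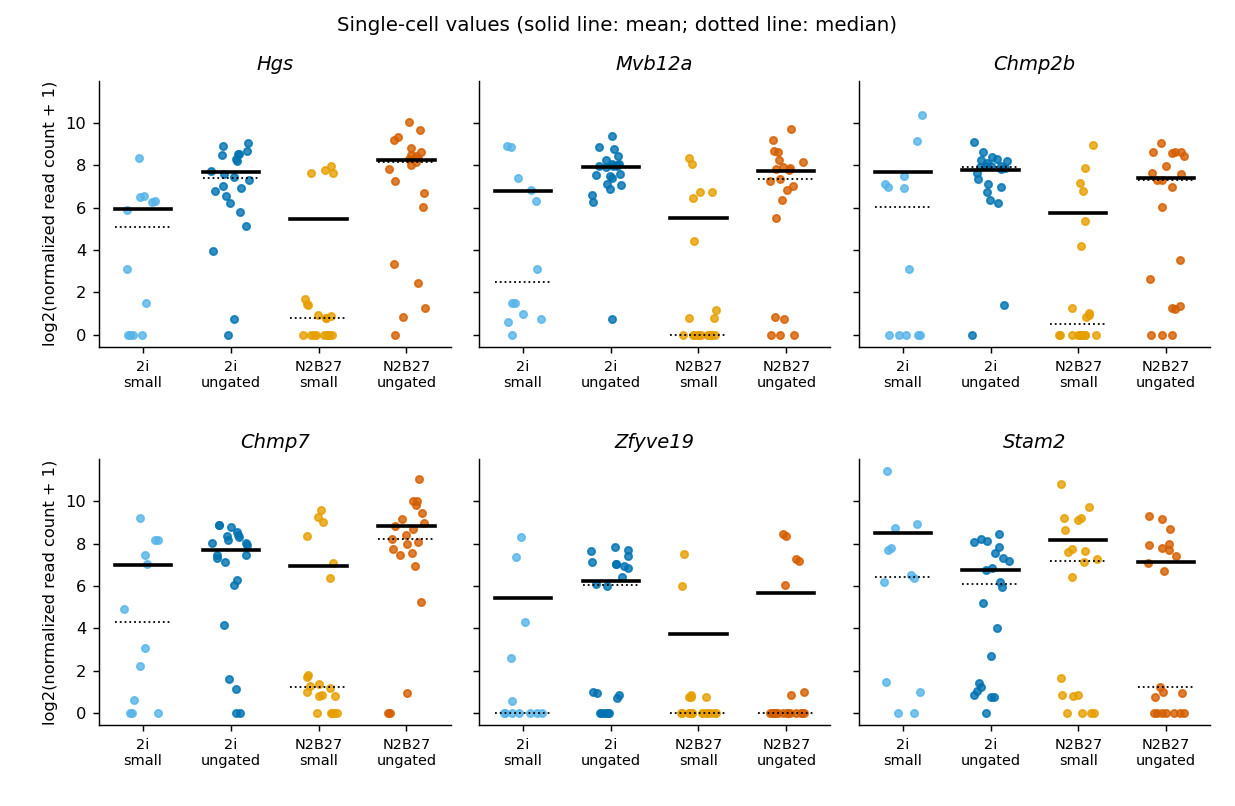
Log2 of normalized read count plus 1 in single cells (points) of the 4 groups, with the mean (solid line) and median (dotted line) of each. Shown are Stam2 and the 5 members past the limit as lower in N2B27 small than N2B27 ungated cells in each of the 13 settings. Most N2B27 small cells lie at or near 0 for Hgs, Mvb12a, Chmp2b, Chmp7 and Zfyve19, while for Hgs and Chmp7 most N2B27 ungated cells lie above 5.

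In 2i the same gate was compared on the other plate. Among the 26 members 7 were lower and 1 was higher in small cells, 26.9% and 3.85%, beside 27.8% and 16.3% of all genes. The share of lower members was thus close to that of all genes. The median of the 31 members was -0.57 (interval -0.81 to 0.26), that of the 26 members -0.66 and that of all genes -0.36. Without the cell of high spike-in share 1 member was higher and 6 were lower, where 12.1% and 25.1% of all genes were. The medians were then -0.44 for the members and -0.30 for all genes, and the ratios past the limit are given below with and without this cell. Without the cell with the most genes 1 member was higher and 7 were lower, with 17.4% and 28.4% of all genes.

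Within ESCRT-0 both directions were seen. Stam, a ubiquitin-binding partner of Hgs, had a mean of 27.1 in 2i small and 107.8 in 2i ungated (log2 ratio -1.95, without the cell -1.83), and its highest 2i small cell held 56.9% of the counts. Hgs stood at 60.4 and 204 (log2 ratio -1.74, without the cell -1.63), with 8 of 12 small and 21 of 22 ungated cells having a count. Stam2, the other partner, was higher in small cells at 359.8 against 106 (log2 ratio 1.75, without the cell 1.87). Its 2i small cells ran from 0 over a median of 86.1 to 2730, and its 2i ungated cells from 0 over a median of 66.3 to 354. With the highest cell of each group left out the ratio was 0.60, under the limit.

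Of ESCRT-I, Vps37c stood at 16.9 in 2i small and 53.1 in 2i ungated (log2 ratio -1.60, without the cell -1.48), Mvb12a at 109.6 and 239.6 (-1.12 and -1.01) and Ubap1 at 109.3 and 233 (-1.08 and -0.96). Vps37c had a count in only 3 of 12 small cells. All 22 ungated cells had a count of Mvb12a and of Ubap1, in single cells from 0.689 and 1.04 upwards, against 11 and 9 of the 12 small cells. Chmp6, the subunit that links ESCRT-II to the ESCRT-III filament, stood at 74.8 and 197 (-1.39 and -1.27), and Vps4b, the other VPS4 ATPase, at 66.4 and 196 (-1.54 and -1.43). Median cells showed the same order for Chmp6, at 1.16 in 2i small and 192 in 2i ungated, and for Vps4b, at 39.9 and 172. Chmp1a, which binds the microtubule-severing enzyme Spast, lay just outside the limit at -0.99. Ist1 was higher at 552 against 293 (log2 ratio 0.91, without the cell 0.83). With spike-in size factors 10 members were higher and 0 lower in 2i small, where 40.1% and 5.81% of all genes were. The members' median was then 0.50 beside 0.79 for all genes. The direction of this comparison as a whole therefore depended on the scaling, and only Hgs and Vps4b kept a negative ratio among the 7 lower members, at -0.33 and -0.045.

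Ungated cells in N2B27 were compared with ungated cells in 2i to describe the first hours of the exit in an unselected population. Few members differed by 2-fold. Of the 26, 2 were higher in N2B27 and 3 lower, 7.69% and 11.5%, beside 7.49% and 9.92% of all genes. The median of the 31 members, -0.16 (interval -0.35 to 0.31), and that of the 26, -0.071, lay close to that of all genes at -0.03. Chmp7 was the highest at 456 in N2B27 ungated and 209.5 in 2i ungated, a log2 ratio of 1.12. Its single cells overlapped, from 0 to 2098 and from 0 to 474, with medians of 300.0 and 209.2. This ratio of Chmp7 was between 0.92 and 0.95 in S phase cells, with the highest cells left out and with log2 values averaged, and turned to -2.92 without the filter on cells. Pdcd6ip, the ALIX protein that Cep55 brings to the midbody, stood at 341 and 169.6 (log2 ratio 1.00), with medians of 216 and 156. On the lower side Vps37c had 20.8 and 53.1 (-1.31), Vps37a 36.5 and 76.5 (-1.05) and Stam 52.5 and 107.8 (-1.02). Each of these 3 had a median cell of 0 in N2B27 ungated, and a single cell held 65.8%, 50.8% and 38.4% of the counts there. The ratio of Pdcd6ip was 0.066 when log2 values were averaged over cells.

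Small cells in N2B27 were compared with small cells in 2i to describe the same hours in cells early in the cycle. This comparison and the ones above share groups of cells, so their values are not independent. Of the 26 members 4 were higher and 3 lower in N2B27 small, 15.4% and 11.5%, where 22.3% and 19.2% of all genes were. The median of the 31 members was -0.05 (interval -0.46 to 0.29), that of the 26 was 0.053 and that of all genes 0.09. Without the high spike-in cell 4 were higher and 4 lower, with medians of -0.16 and 0.08, and the shares of all genes without it are not given here. On the higher side, Vps4b stood at 207.7 in N2B27 small and 66.4 in 2i small (log2 ratio 1.63, without the high spike-in cell 1.52), Stam at 67.9 and 27.1 (1.29 and 1.17), Chmp6 at 177 and 74.8 (1.24 and 1.11), and Chmp4c at 101.3 and 45.6 (1.13 and 1.01). Chmp4c is the filament subunit through which Aurora B delays abscission. All 4 ratios turned negative with spike-in size factors, under which the median of all genes was -1.59. These values include the 2i small cell of low spike-in share, and its part in them was not tested.

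Chmp2b, Zfyve19 and Mvb12a were the members on the lower side, and they stayed past the limit in each of the 13 settings. How many of all genes did so is not given here. Chmp2b stood at 51.9 in N2B27 small and 203 in 2i small (log2 ratio -1.95, without the high spike-in cell -2.07). In 2i small its cells ran from 0 over a median of 63.5 to 1316 and in N2B27 small from 0 over a median of 0.410 to 491. Zfyve19 stood at 12.3 and 42.3 (-1.70 and -1.83), with a median cell of 0 in both groups. Mvb12a stood at 45.0 and 109.6 (-1.26 and -1.38), with medians of 0 and 4.71. Without the high spike-in cell Snf8 also passed the limit, at -1.10 in place of -0.99. These 3 genes were also among the members lower in N2B27 small than in N2B27 ungated, and both comparisons hold the same N2B27 small cells.

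Of the 26 members with a mean of at least 20, 10 passed the limit in none of the 4 comparisons. The share of all genes that did the same is not given here, so this count cannot be called high or low. Tsg101, the ESCRT-I subunit that binds Cep55 and cargo, stood at 176, 271, 199 and 189 normalized counts, and Vps36, the lipid-binding subunit of ESCRT-II, at 376, 209, 374 and 292. Of ESCRT-III, Chmp1a stood at 203, 404, 219.6 and 383, Chmp2a at 564, 398.5, 626 and 479, Chmp3 at 365, 354, 417 and 466, Chmp5 at 244, 299, 427 and 387, and Ist1 at 552, 293, 459 and 242. Vps36, Chmp2a, Ist1 and Mitd1 had higher means in small than in ungated cells on both plates, while Chmp1a, Vta1 and Cep55 had lower ones. With spike-in size factors Ist1 (0.14 in N2B27 and 1.30 in 2i) and Chmp1a (-1.45 and -0.59) kept these directions on both plates, whereas Vps36 (-0.52) and Chmp2a (-0.62) turned in N2B27 and Vta1 (1.09) in 2i. For Mitd1 and Cep55 the ratios under these factors are not given here. Vta1 stood at 174, 286, 241 and 289. Cep55, described below, and Mitd1, which binds ESCRT-III at the midbody, complete the 10, and Mitd1 stood at 151, 90.4, 90.3 and 78.0. Spast, which cuts the microtubules of the bridge, was among the members under 20 and stood at 19.5, 15.8, 14.2 and 14.1, with a count in 5, 7, 5 and 4 cells.

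Several subunits are encoded by paralogues that take the same place in a complex, and their share within a set does not depend on the size factor. Counts per kilobase pooled over the cells of a group were used for 6 such sets. In 2 of the 6 sets the same gene led in all 4 groups. Chmp2a made up 84.7%, 74.3%, 94.4% and 83.95% of the Chmp2 set. Stam2 made up 92.7%, 57.8%, 83.3% and 77.7% of the Stam set. The shares of raw counts were 90.04% of 4520 counts (exact binomial interval 89.1% to 90.9%) for Stam2 in 2i small and 49.6% of 5425 (48.2% to 50.9%) in 2i ungated. Single cells did not always hold both genes of a set. Among N2B27 ungated cells 3 had at least 10 reads of both Stam and Stam2, 2 of Stam alone, 7 of Stam2 alone and 9 of neither.

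**Figure D4:**
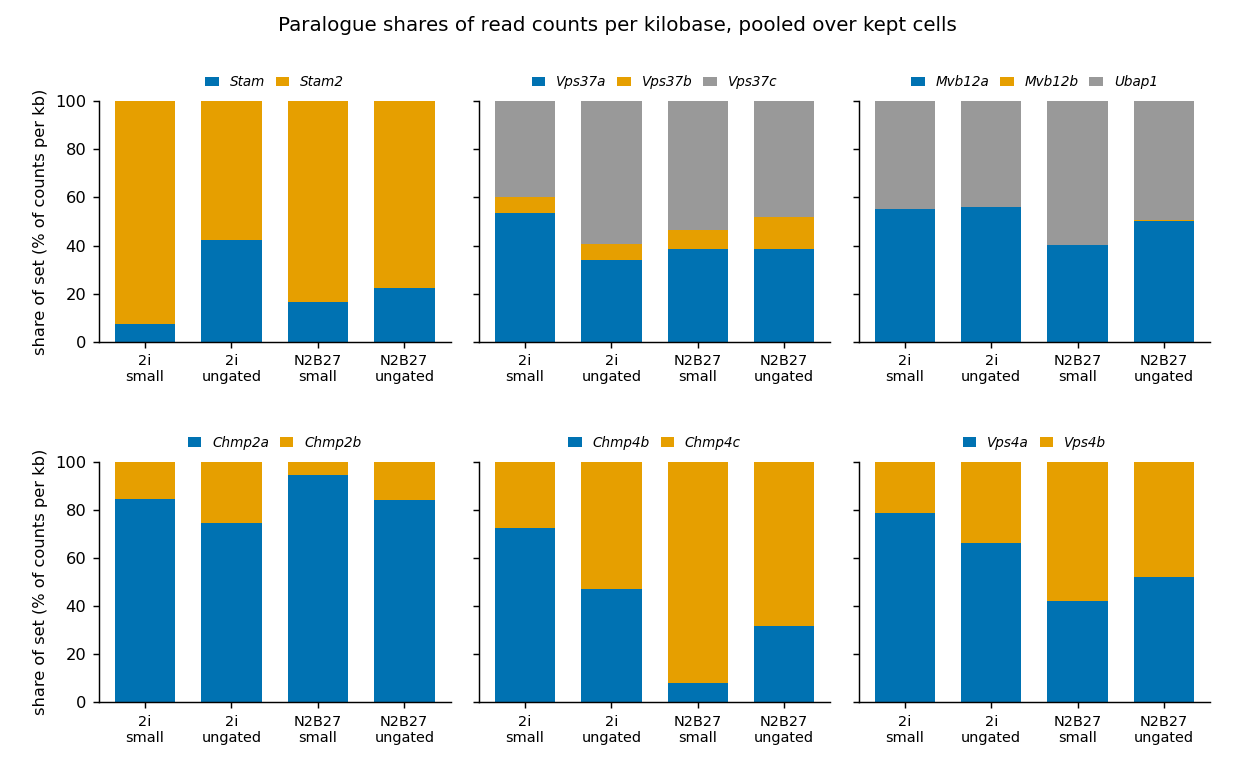
Share of each paralogue in the counts per kilobase of its set (in percent, bars sum to 100), pooled over the kept cells of each group. Chmp2a and Stam2 are the larger part of their bars in all 4 groups, whereas Chmp4b makes up 72.6% of its set in 2i small and 7.75% in N2B27 small.

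The other sets had no gene that led in all 4 groups. Vps4a made up 78.5%, 66.2%, 41.9% and 52.0% of the Vps4 set. By raw counts its share was 50.9%, 35.6%, 17.0% and 23.5%, so its lead in both ungated groups depended on the division by length. Chmp4b made up 72.6%, 47.0%, 7.75% and 31.8% of the pair with Chmp4c. The Chmp4 shares rested on few reads, with 821 counts of both genes in 2i small and 1345 in N2B27 ungated, and the very long exons of Chmp4c, 10.1 kb in all, lower its value per kilobase. By raw counts Chmp4c led in each group, with 65.3%, 84.9%, 98.3% and 91.4%. Mvb12a made up 55.04%, 55.9%, 40.1% and 50.4% of its set with Ubap1 and Mvb12b, and Ubap1 nearly all of the remainder. Vps37c led the Vps37 set in 3 groups, with 59.3%, 53.7% and 48.3% in 2i ungated, N2B27 small and N2B27 ungated, and Vps37a led in 2i small with 53.5%. By raw counts Vps37a led in each group, with 73.0%, 54.6%, 59.7% and 59.6%, so the leading gene of this set also depended on the division by length. When the shares of single cells were averaged, Stam2, Chmp2a, Chmp4c and Vps4b each led their set in all 4 groups. Among cells in S phase only the Chmp2 set had the same leading gene in all 4 groups.

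No member had a count in all 75 cells. The median cell had a count of 20.5 of the 31 members in 2i small (13 to 30), of 25.5 in 2i ungated (23 to 28), of 18.5 in N2B27 small (12 to 25) and of 21 in N2B27 ungated (16 to 28). After thinning to 1300000 counts the medians were 19, 24.5, 16 and 20. These values moved with the number of all genes that had a count, whose thinned medians were 6571.5, 8784.5, 6389.5 and 7476. The 2i small cell with the high spike-in share had a count of 13 members. Chmp2a, Chmp3 and Chmp5 had a count in all cells of 3 groups and in 11 of 12 cells of 2i small, and Ist1 in all cells of 2i small and N2B27 small. Hgs had a count in 66.7% of 2i small cells (Clopper-Pearson interval 34.9% to 90.1%), 95.5% of 2i ungated cells (77.2% to 99.9%), 55% of N2B27 small cells (31.5% to 76.9%) and 95.2% of N2B27 ungated cells (76.2% to 99.9%). Of the fibroblast markers, which ES cells should lack, Col1a2 and Thy1 had a count in 1 cell each and the others in none.

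Summed over each complex per kilobase, the median cell had the most ESCRT-III in all groups, at 1049, 1071, 1029 and 1158. ESCRT-III thus differed little between groups in its median, while single cells ran from 150.1 to 2045 in 2i small and from 442 to 3049 in N2B27 small. ESCRT-I was at 109.5, 271, 117 and 177. ESCRT-0 was at 51.4, 75.4, 61.3 and 106.3, and ESCRT-II at 124, 79.0, 107.0 and 132. For VPS4 with Vta1 the values were 102.0, 171, 92.8 and 199.7, and for the midbody recruiters 94.4, 102.8, 77.6 and 117. These medians lay lower in small than in ungated cells on both plates for every complex except ESCRT-II, where 2i small lay higher. No value of all genes was set beside them. The ranges of single cells overlapped between all groups for each complex.

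Members were also described by cell cycle phase within a group. Cyclone and another method, that of Seurat, assign phases from marker genes, and 9 members (Tsg101, Chmp1a, Chmp3, Ist1, Vps4a, Vps4b, Pdcd6ip, Cep55 and Spast) are themselves cyclone markers, so their levels by cyclone phase are not independent of the call. No member is in the Seurat lists. In N2B27 small, Cep55 had a mean of 0.447 in the 6 cells called G1 by cyclone, 176 in the 11 S cells and 113 in the 3 G2/M cells. By the Seurat phases the means were 80.9, 140.3 and 96.7 in 6, 10 and 4 cells. Hgs, which is no marker, stood at 0.502, 78.9 and 0.829 in G1, S and G2/M cells of N2B27 small by cyclone and at 70.2, 25.5 and 49.5 by Seurat. For Hgs the phase with the highest mean thus depended on the method, while for Cep55 it was S by both. In 2i ungated, where no cell was called G1 by cyclone, Cep55 had means of 127 in 8 S cells and 112 in 14 G2/M cells. Chmp2b was at 0.171 in G1, 48.0 in S and 169.8 in G2/M cells of N2B27 small by cyclone, and at 38.9, 29.6 and 127 by Seurat, highest in G2/M cells by both. The 3 cyclone G2/M cells stood at 0.910, 17.1 and 491, so their mean rests on a single cell. Both methods were applied to the same cells, so the Seurat mean over 4 cells is no separate support.

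Cep55 (chr19:38055011-38074423, plus strand) recruits the machinery to the midbody and is the member whose own expression is known to follow the cell cycle. Its mean was 90.3, 118, 114 and 146. Single cells ran from 0 in every group to 553, 427, 673 and 451, over medians of 10.4, 89.9, 2.36 and 81.1. Medians were thus lower in both groups of small cells, while the means differed less, with log2 ratios of -0.38 in 2i and -0.36 in N2B27. The mean log2(normalized count + 1) of 15 genes of the central spindle and midbody was set against Cep55 across the 75 cells. Pearson's r was 0.49 and Spearman's rho 0.40, and within groups r was 0.77, 0.32, 0.41 and 0.34. Such values were not particular to Cep55. Over the 75 cells r was 0.54 for Chmp6, 0.48 for Mvb12a, 0.47 for Chmp1a and 0.44 for Hgs, but -0.17 for Chmp2a and -0.087 for Ist1. The cells share libraries and size factors and differ in depth, so r is a description. Cells with at least 10 reads of Cep55 had a median spindle level of 5.25, 7.10, 5.26 and 6.54 on the log2 scale, and cells with fewer had 2.12, 6.11, 3.71 and 5.14.

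**Figure D5:**
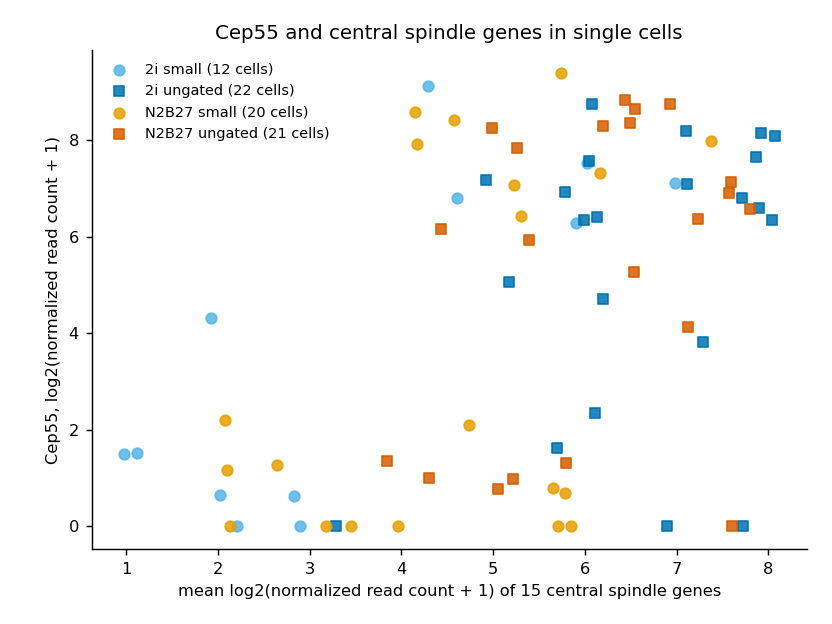
Cep55 against the mean of 15 central spindle genes, both as log2 of normalized read count plus 1, in 75 single cells coloured by group. At the low end of the spindle level nearly all cells have little or no Cep55, and at its high end cells with and without Cep55 are both seen (r = 0.49).

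Many promoters of genes expressed around mitosis hold a short element known as the cell cycle genes homology region, with the letters TTTGAA. Those letters were looked for on both strands in RefSeq promoters of GRCm38.p6, from 250 bases before to 50 after the start site. They occur in 17.9% of all 32851 promoters, in 6 of 28 promoters of the members (21.4%) and in 12 of 14 promoters of the central spindle and midbody genes (85.7%). Promoters were found for 25 members and 12 of the 15 spindle genes. The members are Cep55, Chmp2b, Mitd1, Mvb12a and Pdcd6ip. Of these, Cep55 (-0.36), Mitd1 (0.21) and Pdcd6ip (-0.78) did not pass the limit in N2B27 small against ungated cells. Of the members past the limit as lower there, Chmp2b and Mvb12a hold the letters. Hgs, Chmp7, Zfyve19, Ubap1, Snf8 and Vps4a are not among the members with them. Whether a promoter was found for each of these is not given here. A link between the letters and the ratios was not tested, and the share of member promoters lay close to that of all promoters. The windows below show the element (in capitals, TTCAAA where it lies on the other strand) for Cep55 at chr19:38054998-38055023, for the spindle genes Prc1 at chr7:80294436-80294461 and Plk1 at chr7:122159455-122159480, whose elements also lie near the start site, and for Chmp2b at chr16:65562800-65562825 and Mvb12a at chr8:71542884-71542909, which were low in N2B27 small cells.
Cep55: agccgcgggaTTCAAActcccggaag
Prc1: tctggctcggTTTGAAttccgcgggg
Plk1: cagcgccgcgTTTGAAttcggggagg
Chmp2b: gcgggcagccTTTGAAgtgagggcac
Mvb12a: gcggagcactTTCAAAggtgttctgg
The first base of the element lies at 24 for Cep55, at -5 for Prc1, at 30 for Plk1, at -53 for Chmp2b and at -36 for Mvb12a, counted from a start site at 0. A match of these letters is a description of the sequence and not a bound site.

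The central spindle and midbody genes, which build the structure that Cep55 joins, were a list of 15, and their values below include the 2i small cell of high spike-in share. In N2B27 small against ungated cells 2 of 15 were higher and 4 lower, with 11.8% and 17.1% of all genes, led by Kif14 (2.38) and Ect2 (1.34), a kinesin and a RhoGEF of cytokinesis, and by Kif20a (-1.44), Incenp (-1.28) and Plk1 (-1.12), with a median of -0.39. In 2i small against ungated cells 11 of 15 were lower and 0 higher, beside 27.8% and 16.3% of all genes, with Kif14 (-3.39), Kif23 (-3.20) and Kif20a (-2.64) at the end, and the median was -1.34. Between ungated cells of the 2 media no gene of this list passed the limit, where 7.49% of all genes were higher and 9.92% lower, and the median was 0.01. In N2B27 small against 2i small cells 9 were higher, among them Kif14 (5.13), Kif23 (2.25) and Aurkb (2.01), and Birc5 was lower (-1.37), with a median of 1.27, while 22.3% of all genes were higher and 19.2% lower. Kif14 had 2.12 normalized counts in 2i small, where a single cell held 98.5% of its counts, and 108.4 in N2B27 small, where a single cell held 43.8%. Of these 15 genes 13 are cyclone markers.

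Partners of the ESCRT complexes were a list of 14, of which 7 had a mean of at least 20, and the shares of all genes past the limit are those just given. In N2B27 small against ungated cells Spg20 (3.48), whose protein spartin binds Ist1, and Capn7 (1.18), a calpain that binds ESCRT-III, were higher. Arrdc1 (-1.50), Cc2d1a (-1.28) and the deubiquitinase gene Usp8 (-1.14) were lower, and the median of all 14 was -0.20. Spg20 stood at 29.99 in N2B27 small and 1.79 in N2B27 ungated, with a count in 6 of 20 and 3 of 21 cells. In 2i small against ungated cells Capn7 was higher (1.76) and Cc2d1b (-1.93), Brox (-1.43) and Cc2d1a (-1.04) were lower. Between ungated cells Spg20 alone passed the limit, lower in N2B27 (-3.39). In N2B27 small against 2i small cells Cc2d1b (1.77) and Brox (1.22) were higher, and Arrdc1 (-1.99), Usp8 (-1.91) and Capn7 (-1.01) were lower. Capn7 was the partner that passed the limit as higher in small cells on both plates, at 151 in 2i small, 44.1 in 2i ungated, 74.5 in N2B27 small and 32.2 in N2B27 ungated. In both groups of small cells that mean was carried by few cells. Capn7 had a count in 6 of 12, 18 of 22, 8 of 20 and 12 of 21 cells, a single cell held 45.0%, 21.6%, 35.6% and 37.2% of its counts, and its median cell stood at 0.742, 17.6, 0 and 1.90, lower in small cells on both plates.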

How the data were processed

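Single-cell Smart-seq2 libraries of 4 samples were analysed. The authors trimmed reads, aligned them to GRCm38 (mm10) with GSNAP, counted them per gene with HTSeq and deposited raw counts, 1 table per medium, which are whole numbers and were not normalized or pooled over cells. The submitters' processing notes give Trim Galore 0.4.4. Columns were matched to samples through the deposited list of sequencing runs. Rows that name no gene (3.85% of counts on spike-ins, 4.81% in no feature, 6.77% ambiguous, 11.1% not aligned, 1.09% of low quality and 0.0498% not unique) stayed out of totals. Symbols, exon lengths and overlaps came from GENCODE M21, a later release than the authors' annotation.

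Cells were filtered per plate at 3 median absolute deviations with scater 1.30.1, which set lower limits of 307960 counts and 4435 genes in 2i and 1250614 counts and 5316 genes in N2B27. Size factors were computed with DESeq2 1.42.0 over all kept cells, with no DESeq2 test, phases with scran 1.30.0 and Seurat 5.3.0 in R 4.3.3, and all else with Python 3.11.15. No doublet caller was run. That each well received 1 cell was assumed and not tested, and the 2i small cell with 15712 genes was kept. A log2 ratio compares means with a pseudocount of 1. A gene was past the limit at a log2 size of at least 1 and a mean of at least 20. Steps were tested on simulated data. With 1 sample per group no p-value was computed. Smart-seq2 reads carry no molecular identifiers, so intervals cover counting error only.

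All members are named. Of the partner and spindle lists up to 3 genes per list, comparison and direction are named, by size among those past the limit. The rule for the members uses no measured value, but the members, lists and settings were chosen with earlier results of these data known. Alternatives covered normalization, summary over cells, cell and gene filters, phase, pseudocount and depth.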

Additional observations from a re-analysis of the deposited data

Results flagged for a closer look

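Stam, a ubiquitin-binding subunit of ESCRT-0, differed between media in opposite directions in the 2 gates. In ungated cells it was lower in N2B27 than in 2i, with a log2 ratio of -1.02, and in small cells it was higher in N2B27, with a log2 ratio of 1.29. With spike-in size factors the ratio of Stam in small cells was -1.06, the same direction as in ungated cells. That value includes the 2i small cell with 0.067% of its counts on spike-ins, whose reads weigh heavily under these factors. The ratio without that cell is not given here. Whether the gates differ was not tested, since each group is 1 sample. The 4 means were 27.1 normalized counts in 2i small, 107.8 in 2i ungated, 67.9 in N2B27 small and 52.5 in N2B27 ungated, and the median cell was at 0.271, 46.9, 0 and 0. A single cell held 56.9%, 34.5%, 36.6% and 38.4% of the counts of these groups. No other member passed the limit in opposite directions in the 2 gates or in the 2 media.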

How the results depend on the processing

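With 1 sample per group no result could be recomputed without a replicate, and counts of cells and depth cannot stand for the spread between samples. No paired analysis was possible because each group compared is 1 sample and no groups share 2 replicate numbers. Of the members' ratios past the limit, each under 13 alternatives, and the Cep55 phase comparison, 49 values came under the limit and 14 reversed. The settings without a 2i small cell cannot move comparisons that hold none. The cause was not tested. Size factors from spike-ins moved the median of all genes to -0.83 in N2B27 small against ungated cells, 0.79 in 2i small against ungated cells and -1.59 in N2B27 small against 2i small cells. Under them 41.1% of all genes were lower and 6.57% higher, 40.1% higher and 5.81% lower, and 71.7% lower and 3.04% higher in these comparisons. The members' medians became 0.50 in 2i and -1.59 between small cells, with 20 members past the limit in the latter and 2 between ungated cells. In N2B27 small against ungated cells Stam2 turned to -0.054, in 2i Stam to 0.19, Vps37c to 0.45, Mvb12a to 0.74, Ubap1 to 0.10 and Chmp6 to 0.038, and between small cells Stam to -1.06, Chmp4c to -0.48, Chmp6 to -0.43 and Vps4b to -0.86. With log2 values averaged over cells, 14 members passed in N2B27 (1 higher, 13 lower, with 4.38% and 42.4% of all genes), 21 in 2i with a median of -1.69 (0 higher, with 3.72% and 60.0% of all genes) and 11 between ungated cells with a median of -0.63 (0 higher, with 2.88% and 37.2% of all genes). Without the highest cell of each gene and group, 14 passed in 2i with a median of -1.08 (0 higher, with 3.98% and 42.2% of all genes) and 2 between ungated cells. Without a filter on cells, 13 passed in 2i (with 49.5% of all genes) and 3 between ungated cells (with 29.7%), Ubap1 turned to 3.96 in 2i and Chmp7 to -2.92 between ungated cells. In S phase cells alone, 11 passed between ungated cells with a median of -0.43 (with 41.2% of all genes) and 12 between small cells (with 42.6%), while in N2B27 Stam2 turned to -1.10 and Ubap1 to 4.03, where 7 members were higher and 6 lower with 26.8% and 17.3% of all genes. A pseudocount of 5 left 2 members between ungated cells, and a minimum mean of 100 left 2 there and 4 between small cells. Where no share of all genes stands beside a count of members in this section, the count is no result about the members. The number of paralogue sets with 1 leading gene was 4 with shares averaged over cells and 1 in S phase cells.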
